A study of Mus musculus with 14 samples.

Results

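The genes described here are the 4 adult globin genes of the mouse, Hba-a1, Hba-a2, Hbb-bs and Hbb-bt, and Alas2, the erythroid form of the enzyme that starts haem synthesis. They were taken by symbol from the deposited count table as a trace of blood in brain tissue. The choice of symbols used no threshold on a measured value but was made with earlier results of these data known. All 5 were found among 55359 Ensembl gene rows, and 4 of the 5 passed the filter on low counts that left 16918 genes for testing. Alas2 did not pass it. RNA was sequenced from both hemispheres' cortex in a mouse model of cerebral venous sinus thrombosis (CVST), a clot in the large veins that drain the brain. The 14 samples comprised 5 taken 7 days after induction (CVST-7d), 5 taken 2 days after induction (CVST-2d) and 4 sham-operated controls (sham). Strain, age, sex, the time at which sham cortex was taken and whether vessels were flushed of blood before dissection were not given in the sources used here.

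Adult haemoglobin is a tetramer of alpha chains and beta chains, each of which holds a haem group. Circulating mouse red cells have no nucleus, and the youngest of them, the reticulocytes, still carry messenger RNA, most of it from globin genes. Globin reads in a solid tissue are therefore commonly read as a sign of blood in the sample, although low globin expression has also been described in some neurons and glia. In thrombosis of the venous sinuses, blocked drainage congests the small veins of the cortex and can lead to haemorrhage. In these bulk samples, more red cells, more RNA per red cell, blood inside vessels and blood outside them cannot be told apart.

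The promoters of the 5 genes are shown first because the levels of the 4 globin genes moved together across samples; Alas2 was too low for that comparison and is shown for its role beside them. Each is the 250 bases before the transcript start in RefSeq for GRCm38.p6. This is not the build named in the submitters' processing notes (mm39), so these coordinates belong to the sequences alone. Capitals mark matches, on either strand, to GATAA, the core of the site bound by the erythroid factor GATA1, and to CCNCNCCC, the CACCC-box pattern bound by KLF1 and related factors, where N is any base. Overlapping matches to CCNCNCCC run together as 1 block of capitals. The Hba-a1 stretch lies on the plus strand at chr11:32283422-32283671, the Hbb-bs stretch on the minus strand at chr7:103827929-103828178, the Hbb-bt stretch on the minus strand at chr7:103813924-103814173 and the Alas2 stretch on the plus strand at chrX:150547167-150547416.
Hba-a1: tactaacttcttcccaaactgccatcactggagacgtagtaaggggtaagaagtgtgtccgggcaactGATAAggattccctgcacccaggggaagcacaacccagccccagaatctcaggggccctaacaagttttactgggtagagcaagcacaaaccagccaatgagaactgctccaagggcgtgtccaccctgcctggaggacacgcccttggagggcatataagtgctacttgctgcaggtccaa
Hbb-bs: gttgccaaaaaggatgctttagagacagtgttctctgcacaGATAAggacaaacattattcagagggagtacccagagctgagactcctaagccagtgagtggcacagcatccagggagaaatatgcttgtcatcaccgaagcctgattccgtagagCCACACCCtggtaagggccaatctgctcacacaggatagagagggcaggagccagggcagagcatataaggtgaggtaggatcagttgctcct
Hbb-bt: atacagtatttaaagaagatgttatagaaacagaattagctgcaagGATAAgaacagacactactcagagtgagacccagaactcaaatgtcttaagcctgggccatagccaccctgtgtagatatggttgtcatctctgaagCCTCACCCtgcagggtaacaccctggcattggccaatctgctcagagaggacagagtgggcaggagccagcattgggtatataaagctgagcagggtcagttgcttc
Alas2: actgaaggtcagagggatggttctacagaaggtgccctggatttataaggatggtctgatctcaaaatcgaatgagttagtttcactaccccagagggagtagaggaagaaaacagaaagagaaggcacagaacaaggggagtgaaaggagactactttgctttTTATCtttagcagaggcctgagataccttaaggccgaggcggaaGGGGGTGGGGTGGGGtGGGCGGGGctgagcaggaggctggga

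The Hba-a2 stretch is not printed because 297 of 300 bases in the RefSeq windows of Hba-a1 and Hba-a2, which reach past the start site, formed 1 identical run. GATAA matched once in each of the 5 stretches, on the minus strand in Alas2 and on the plus strand in the others, and in 22.6% of 32851 windows of the same length. CCNCNCCC matched once in Hbb-bs, once in Hbb-bt and at 4 places in Alas2, 3 of which overlapped in a run. It had no match in Hba-a1 or Hba-a2 and matched in 45.9% of all windows. The 4 globin stretches also held CCAAT, which matched in 33.8% of windows, and the TATA-type pattern ATATAA, which matched in 9.1%. ATATAA began between 31 and 28 bases before the start in the 4 globin genes. Alas2 had neither. These matches describe letters in a window and do not show binding.

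At 2 days, cortex held more globin RNA than any sham sample in 4 of 5 samples. Summed over the 4 globin genes, the level in CPM (TMM-normalised counts relative to library size) was 32.6, 383, 157, 24.8 and 26.5 in CVST-2d replicates 1 to 5, against 6.05, 25.7, 4.10 and 9.74 CPM in sham replicates 1 to 4. The means were 124.6 ± 155 CPM in CVST-2d and 11.4 ± 9.80 CPM in sham cortex (SD, n = 5 and n = 4). CVST-2d replicates 2 and 3 lay far above the other CVST-2d samples, and sham replicate 2 lay near the lower CVST-2d samples.

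Hba-a1 (ENSMUSG00000069919), one of the adult alpha chain genes, stood at 7.38, 93.2, 32.6, 6.38 and 6.71 CPM in CVST-2d replicates 1 to 5, against 1.12, 5.75, 0.70 and 2.15 CPM in sham replicates 1 to 4. All 5 CVST-2d samples lay above all 4 sham samples, the one gene of the 5 whose groups did not overlap. Among all genes tested, 5.65% had CVST-2d samples that all lay above the sham samples. The log2 fold change was 3.61 ± 0.99 (SE; 95% interval 1.49 to 5.72), a 12.2-fold higher mean level in CVST-2d. The adjusted p was 0.055 in edgeR's quasi-likelihood test, with p-values adjusted by Benjamini-Hochberg across every tested gene, just short of the threshold of 0.05. In an exact two-sided permutation test of log2 CPM over samples, the unadjusted p was 0.00794, the smallest that 5 samples against 4 can give.

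Hba-a2 (ENSMUSG00000069917), the other adult alpha chain gene, stood at 11.5, 125.6, 47.7, 6.93 and 7.06 CPM in CVST-2d replicates 1 to 5, against 2.47, 8.59, 1.85 and 2.58 CPM in sham replicates 1 to 4. CVST-2d replicates 1, 2 and 3 lay above every sham sample, whereas replicates 4 and 5 lay below sham replicate 2. The log2 fold change was 3.37 ± 1.04 (SE), with an edgeR adjusted p of 0.083 and an unadjusted exact permutation p of 0.0476.

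Hbb-bs (ENSMUSG00000052305), which encodes a beta chain of the single haplotype carried by C57BL/6 mice, stood at 11.4, 146, 69.2, 9.62 and 11.9 CPM in CVST-2d replicates 1 to 5, against 2.17, 9.86, 1.40 and 4.199 CPM in sham replicates 1 to 4. Of the CVST-2d samples, 4 of 5 lay above every sham sample, and replicate 4 lay just under sham replicate 2. The log2 fold change was 3.50 ± 1.04 (SE), with an edgeR adjusted p of 0.0718 and an unadjusted exact permutation p of 0.0238.

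Hbb-bt (ENSMUSG00000073940), the second adult beta gene of the same haplotype, stood at 2.24, 18.2, 7.06, 1.92 and 0.81 CPM in CVST-2d replicates 1 to 5, against 0.29, 1.45, 0.15 and 0.81 CPM in sham replicates 1 to 4. CVST-2d replicates 1 to 4 lay above every sham sample, and replicate 5 lay within the sham range. The log2 fold change was 3.17 ± 0.91 (SE), with an edgeR adjusted p of 0.0623 and an unadjusted exact permutation p of 0.0397.

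Alas2 (ENSMUSG00000025270), whose enzyme makes the precursor of haem in developing red cells, was close to the limit of detection and is given in counts. Its counts were 9, 34, 19, 3 and 4 in CVST-2d replicates 1 to 5, against 0, 6, 0 and 1 in sham replicates 1 to 4. CVST-2d replicates 1, 2 and 3 lay above every sham sample in CPM. In the fit without the filter its log2 fold change was 2.83 ± 1.03 (SE), with an edgeR adjusted p of 0.191, and the unadjusted exact permutation p was 0.0556. Over all 3 groups 4 samples had a count of 0, which at their depth allows up to 0.15 to 0.176 CPM (3 counts), so Alas2 is not shown to be absent there. Intervals and limits of this kind cover counting error only.

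**Figure D1:**
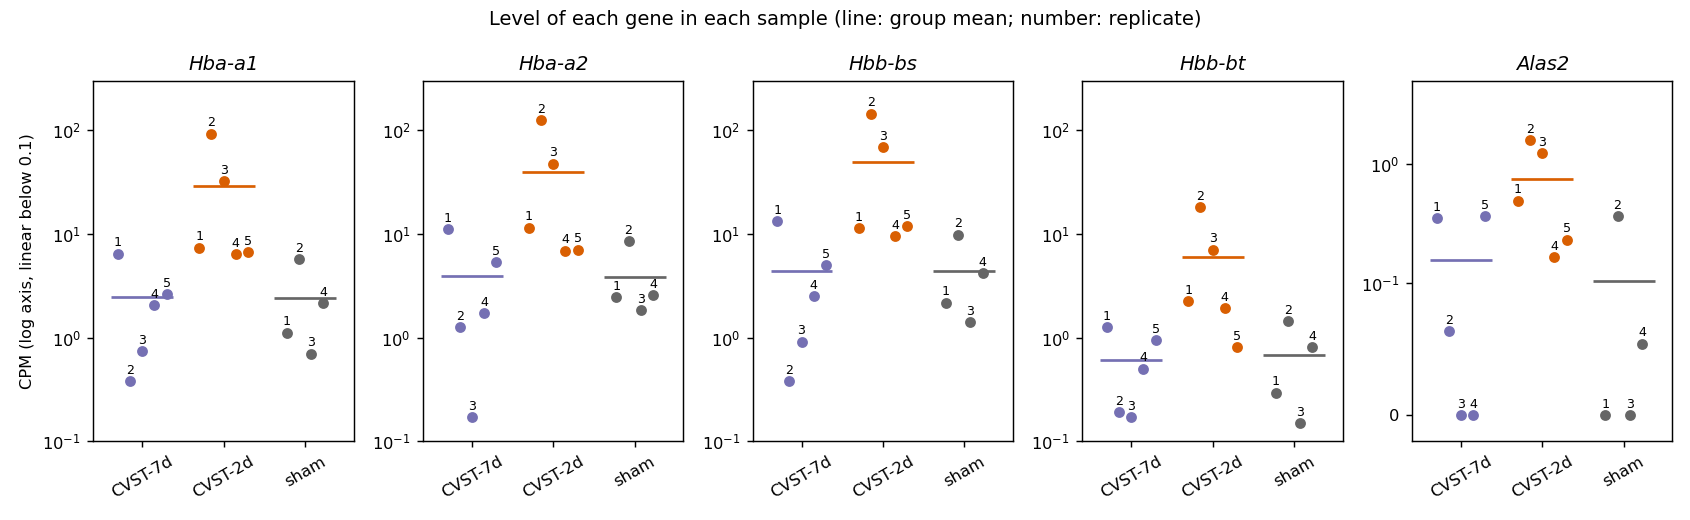
Level of each gene in each sample in CPM, on a log axis that is linear below 0.1; points are samples with their replicate number, and lines are group means. CVST-2d replicates 2 and 3 lie above the rest for all 5 genes, and the CVST-7d and sham points cover much the same range.

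Under the rule used throughout (edgeR adjusted p under 0.05), none of the 4 tested globin genes was called higher in CVST-2d than in sham cortex, where 2.98% of all genes tested were. At an unadjusted edgeR p under 0.05, all 4 were higher, where 12.3% of all genes tested were. DESeq2 called all 4, with adjusted p from 0.00397 to 0.0213. It also called more genes higher over all genes tested than edgeR did, as counted in the closing section. Between 77 and 112 tested genes had a higher fold change than each of them, whereas 761 to 1160 genes had a smaller p, so large fold changes went with large spread. CVST-2d replicate 2 exceeded the lowest CVST-2d sample 14.6-fold for Hba-a1 and 22.5-fold for Hbb-bt. Without replicate 2, the log2 fold changes were 2.45 for Hba-a1, 2.24 for Hba-a2, 2.54 for Hbb-bs and 2.15 for Hbb-bt, with edgeR adjusted p from 0.144 to 0.22. Without CVST-2d replicate 5, the log2 fold changes were 3.87 for Hba-a1, 3.65 for Hba-a2, 3.77 for Hbb-bs and 3.47 for Hbb-bt, and all 4 were called, with edgeR adjusted p from 0.0184 to 0.0327. Which calls were made against sham thus changed with single libraries. For Hba-a1 the unadjusted edgeR p was 0.00135 without replicate 5 and 0.00152 without replicate 4, while the edgeR adjusted p was 0.02185 and 0.0568. The adjusted p also depends on all other genes, of which 60 to 1193 were called higher over the left-out fits. A call gained or lost is therefore no measure of the change in these genes alone.

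**Figure D2:**
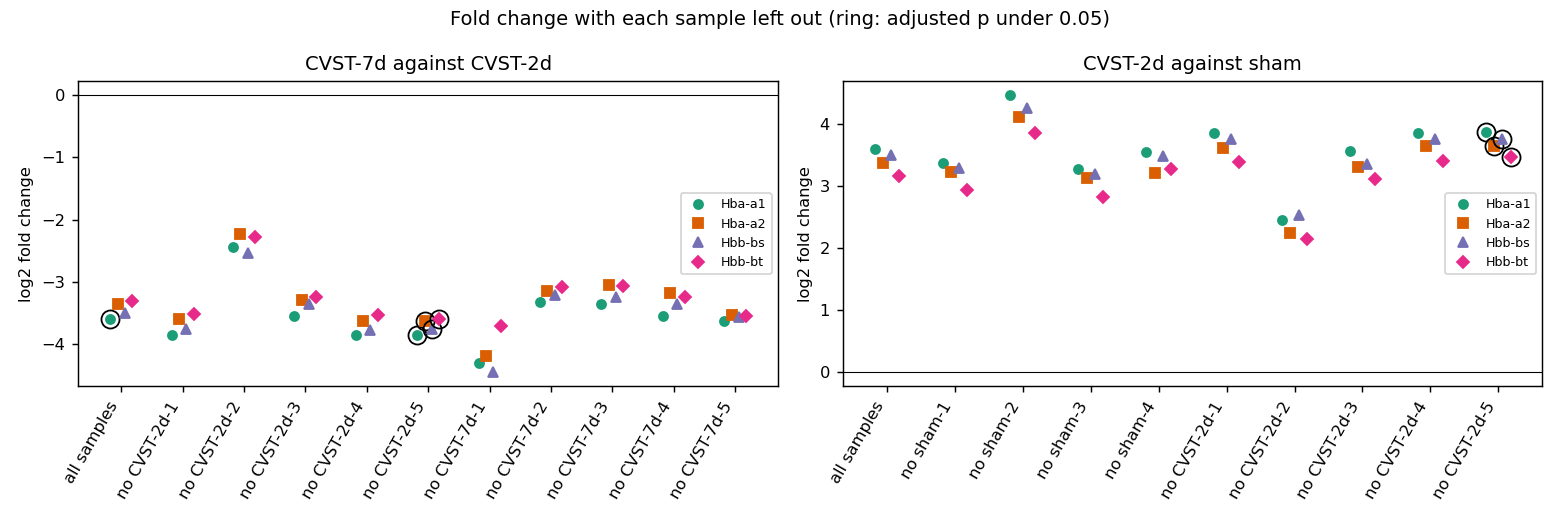
Fitted log2 fold change of the 4 globin genes with all samples and with each sample left out in turn, CVST-7d against CVST-2d on the left and CVST-2d against sham on the right; rings mark an edgeR adjusted p under 0.05. No left-out sample turned the sign in either comparison, and rings appear for all 4 genes when CVST-2d replicate 5 is left out.

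At 7 days Hba-a1 was lower than at 2 days, and the other 3 globin genes had negative fold changes of like size that missed the threshold. The 4 globin genes summed to 32.2, 2.22, 2.00, 6.80 and 13.98 CPM in CVST-7d replicates 1 to 5, a mean of 11.4 ± 12.6 CPM (SD, n = 5), against the 124.6 ± 155 CPM in CVST-2d given above. CVST-7d replicate 1 alone lay within the CVST-2d range, which began at 24.8 CPM. Hba-a1 was at 6.48, 0.38, 0.74, 2.06 and 2.62 CPM in CVST-7d replicates 1 to 5, of which 4 of 5 lay below every CVST-2d sample. Its level fell in CVST-7d relative to CVST-2d, with a log2 fold change of -3.60 ± 0.91 (SE; 95% interval -5.53 to -1.66), an edgeR adjusted p of 0.048 and an unadjusted exact permutation p of 0.0159.

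Hba-a2 was at 11.1, 1.27, 0.17, 1.73 and 5.39 CPM in CVST-7d replicates 1 to 5, with 4 of 5 below every CVST-2d sample. Its log2 fold change against CVST-2d was -3.36 ± 0.95 (SE), with an edgeR adjusted p of 0.0712. Hbb-bs was at 13.4, 0.38, 0.92, 2.51 and 5.03 CPM in the same order, again with 4 of 5 below every CVST-2d sample. Its log2 fold change was -3.51 ± 0.95 (SE), with an edgeR adjusted p of 0.0626. The beta pair's minor gene, Hbb-bt, was at 1.25, 0.19, 0.17, 0.50 and 0.94 CPM, with 3 of 5 below every CVST-2d sample. Its log2 fold change was -3.31 ± 0.84 (SE), with an edgeR adjusted p of 0.0501, a hair above the threshold. Alas2 counts were 5, 1, 0, 0 and 7, and its log2 fold change in the fit without the filter was -2.23 ± 0.90 (SE; edgeR adjusted p = 0.266).

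Of the 4 tested globin genes, Hba-a1 alone was called lower in CVST-7d than in CVST-2d, where 1.25% of all genes tested were called lower. At an unadjusted edgeR p under 0.05 all 4 were lower, where 10.6% of all genes tested were. None of the 4 had groups without overlap, which 2.13% of all genes tested showed in this direction. The fold changes were among the most negative of the comparison: by fitted fold change, 5 genes lay below Hba-a1, 9 below Hbb-bs, 10 below Hba-a2 and 12 below Hbb-bt. Of the 10 fits that leave out 1 sample each the call on Hba-a1 was kept in 1, that without CVST-2d replicate 5 (log2 fold change -3.85, edgeR adjusted p = 0.0215), and lost in the other 9, with log2 fold changes between -4.30 and -2.44 and adjusted p from 0.0515 to 0.12. The smallest of these changes, -2.44, came without CVST-2d replicate 2 and the largest, -4.30, without CVST-7d replicate 1. The unadjusted edgeR p in these 2 fits was 0.0069 and 0.00078, beside 0.0013 with all samples. A lost call thus did not always go with a larger unadjusted p.

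Against sham cortex, CVST-7d cortex had no globin gene past the threshold with edgeR or with DESeq2, where 4.44% of all genes tested were called by edgeR in either direction. None had an unadjusted edgeR p under 0.05 either, which 19.6% of all genes tested had. The same sham samples serve in this comparison and in that of CVST-2d with sham. Hba-a1 averaged 2.46 ± 2.43 CPM in CVST-7d and 2.43 ± 2.30 CPM in sham, a log2 fold change of 0.01 ± 0.98 (SE) with a 95% interval from -2.09 to 2.11. Hba-a2 averaged 3.93 ± 4.45 CPM in CVST-7d and 3.87 ± 3.16 CPM in sham, Hbb-bs 4.44 ± 5.31 CPM in CVST-7d and 4.41 ± 3.82 CPM in sham, and Hbb-bt 0.612 ± 0.476 CPM in CVST-7d and 0.676 ± 0.590 CPM in sham (SD, n = 5 and n = 4). The edgeR adjusted p ranged from 0.958 to 1.00 over these 4 genes. The intervals still allow a level at 7 days up to 4.32-fold above sham or 4.25-fold below it for Hba-a1, so these samples do not show that the levels were equal. Summed Alas2 counts were 13 over 5 CVST-7d samples and 7 over 4 sham samples.

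**Figure D3:**
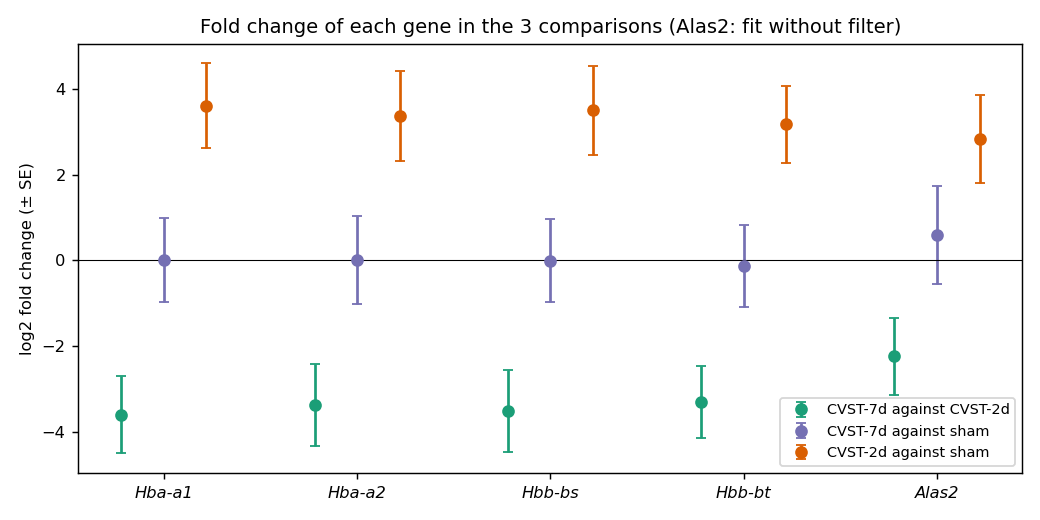
Fitted log2 fold change with its SE for each gene in the comparisons of CVST-7d with CVST-2d, CVST-7d with sham and CVST-2d with sham; Alas2 comes from the fit without the filter. The 4 globin genes lie between -3.60 and -3.31, between -0.13 and 0.01, and between 3.17 and 3.61 in these comparisons.

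Levels can be set beside each other between genes only after division by transcript length, for which the deposited FPKM values (fragments scaled to gene length and library size) were used. In CVST-2d cortex Hba-a2 averaged 135 ± 174 FPKM, Hbb-bs 135 ± 163, Hba-a1 67.2 ± 86.4, Hbb-bt 13.8 ± 16.5 and Alas2 0.496 ± 0.464 FPKM (SD, n = 5). In sham cortex the means were 12.8 ± 10.7 FPKM for Hba-a2, 11.6 ± 10.2 for Hbb-bs, 5.36 ± 5.13 for Hba-a1, 1.49 ± 1.30 for Hbb-bt and 0.06 ± 0.101 for Alas2 (SD, n = 4). The order of the genes was thus the same in both groups. The first 3 genes differed by less than their spread over samples.

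Both pairs consist of near-identical copies, so how the reads were shared between them is uncertain. The coding sequences of Hba-a1 and Hba-a2 differ at 1 of 429 bases, and those of Hbb-bs and Hbb-bt at 1 of 444, in the GENCODE M21 transcripts. How reads that match both copies were counted is not given in the sources used here. With each pair summed into 1 row before the fit, the alpha pair had a log2 fold change of 3.47 ± 1.01 (SE; edgeR adjusted p = 0.067) and the beta pair one of 3.46 ± 1.02 (edgeR adjusted p = 0.0698) in CVST-2d against sham. In CVST-7d against CVST-2d they were -3.45 ± 0.92 (edgeR adjusted p = 0.0601) and -3.48 ± 0.93 (edgeR adjusted p = 0.0607). The single call on Hba-a1 was thus not made once the copies were summed.

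The balance among the globin genes was compared separately from their level. Hba-a1 took 45.7 ± 22.9% of the alpha pair's counts in CVST-7d, 43.8 ± 4.37% in CVST-2d and 36.0 ± 8.22% in sham samples (SD, n = 5, 5 and 4). Hbb-bs took 82.0 ± 9.16% of the beta pair's counts in CVST-7d, 88.0 ± 4.52% in CVST-2d and 87.4 ± 2.68% in sham samples. The spread in CVST-7d came from samples with few counts: Hba-a1 took 13 of 16 counts in replicate 3 (81.2%, 95% Clopper-Pearson interval 54.4 to 95.9%) and 6 of 26 in replicate 2 (23.1%, 8.97 to 43.6%). In CVST-2d replicate 2, with 4672 alpha counts, the share was 42.6% (41.2 to 44.0%).

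The ratio of summed alpha to summed beta FPKM averaged 1.71 ± 1.07 in CVST-7d, 1.32 ± 0.184 in CVST-2d and 1.501 ± 0.371 in sham samples. Alas2 came to 3.36 ± 3.76 per 1000 globin FPKM in CVST-7d, 1.87 ± 0.869 in CVST-2d and 1.03 ± 1.40 in sham samples. None of the 12 comparisons of these 4 measures passed an exact permutation test, with Benjamini-Hochberg adjusted p of 0.748 or more. This does not show that the balance was the same, and the size of shift these samples could have shown was not tested.

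**Figure D4:**
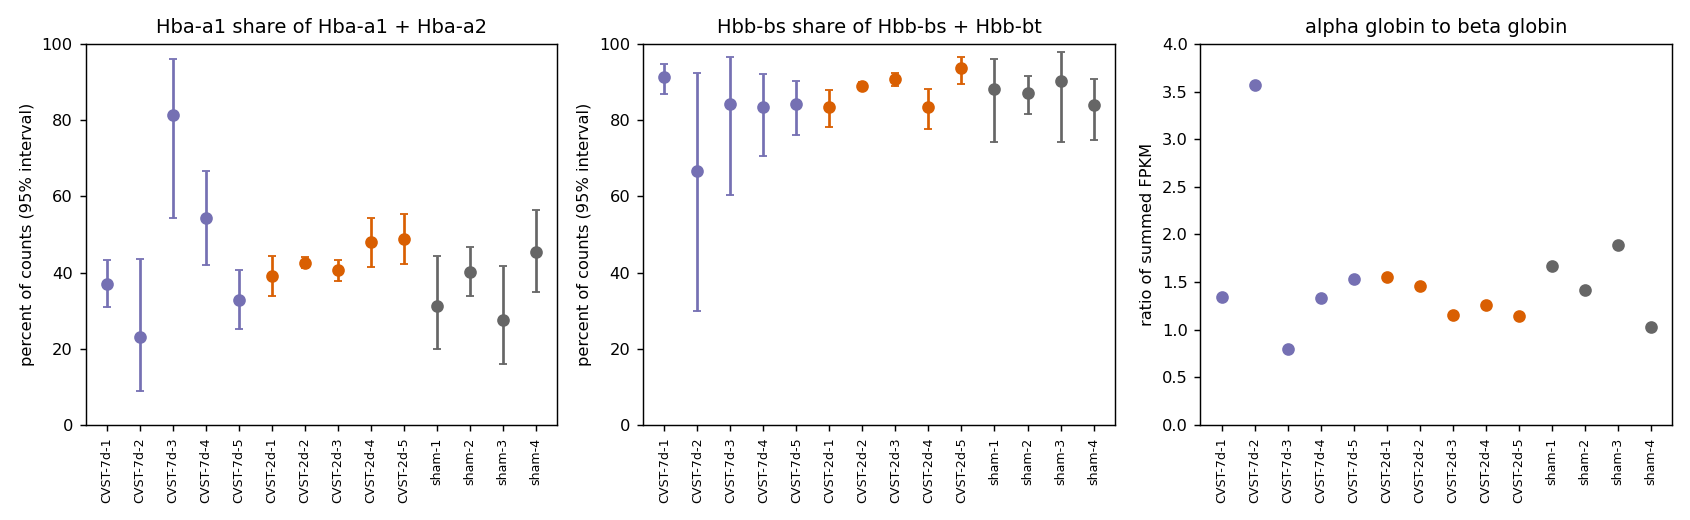
Share of Hba-a1 in the alpha pair and of Hbb-bs in the beta pair as a percent of counts with exact 95% binomial intervals, and the ratio of summed alpha to summed beta FPKM, in each sample. The Hba-a1 share keeps between 39.0 and 48.7% in CVST-2d and spreads from 23.1 to 81.2% in CVST-7d, where counts are few.

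Across the 14 samples, log2 CPM of each tested globin gene had a Pearson correlation of 0.948 to 0.985 with the mean of the other 3. For deviations from the group means it was 0.906 to 0.973. These correlations are descriptions: the points share libraries, near-identical sequence and, in part, reads. CVST-2d replicate 2 was the highest sample of its group for all 5 genes, and sham replicate 2 that of the sham group. CVST-7d replicate 1 was the highest of its group for the 4 globin genes, while CVST-7d replicate 5 was highest for Alas2, by 7 counts against 5.

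Embryonic globins were at or next to 0. Hbb-bh0, Hbb-bh1, Hbb-bh2 and Hbb-bh3 had no count in any sample, while Hbb-y, an embryonic beta-like gene, and Hba-x, the embryonic alpha-like gene, had 1 count each over all samples. The list of other globins held 11 genes in the table, of which 2 were tested and none was called in any comparison (unadjusted edgeR p under 0.05 for Ngb in CVST-2d against sham and for both in CVST-7d against sham, all lower). DESeq2 called 1 lower in CVST-2d against sham. Of all genes tested, 19.6% had an unadjusted edgeR p under 0.05 in either direction in CVST-7d against sham. Ngb, the globin of neurons, averaged 2.599 ± 0.805 CPM in CVST-7d, 1.94 ± 1.94 in CVST-2d and 6.57 ± 3.54 in sham cortex. Its log2 fold change in CVST-2d against sham was -1.76 ± 0.55 (SE; edgeR adjusted p = 0.0861), opposite in sign to the blood globins. Cygb, a globin of fibroblast-like and other cells, averaged 41.9 ± 7.09 CPM in CVST-7d, 43.8 ± 10.6 in CVST-2d and 54.4 ± 8.79 in sham cortex.

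Genes that mark red cell precursors were hardly detected. Slc4a1, the anion exchanger band 3 of the red cell membrane, summed to 0 counts in CVST-7d, 10 in CVST-2d and 1 in sham samples. Gata1, the master factor of the erythroid lineage, and Rhag, the Rh-associated glycoprotein gene, had no count in any sample. The list of red cell membrane and maturation genes held 41 genes in the table, 15 of them below the filter, and the 26 tested include many that cortex cells also express.

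Of these 26 genes none was called by edgeR in CVST-2d against sham, while DESeq2 called 2 lower. At an unadjusted edgeR p under 0.05, 1 was higher, where 12.3% of all genes tested were, and 4 were lower. The share of all genes lower at that p is not given here. The median log2 fold change of the list was -0.02, beside -0.01 over all genes tested. In CVST-7d against sham, where 3.61% of all genes tested were called higher, 1 rose, Tent5c, a poly(A) polymerase that also acts in erythroblasts and plasma cells. It averaged 11.4 ± 7.06 CPM in CVST-7d and 1.72 ± 0.460 in sham cortex, a log2 fold change of 2.72 ± 0.65 (SE; edgeR adjusted p = 0.0309), called in 3 of 9 fits that leave out 1 sample, those without CVST-7d replicate 1, 2 or 3. None of the 26 was called by edgeR in CVST-7d against CVST-2d, while DESeq2 called 1 higher and 1 lower. At an unadjusted edgeR p under 0.05, 2 were higher and 2 lower, where 10.6% of all genes tested were lower.

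None of the 8 other enzymes of haem synthesis was called in any comparison by edgeR or DESeq2. At an unadjusted edgeR p under 0.05, 1 was higher in CVST-2d against sham, 3 in CVST-7d against sham and 2 in CVST-7d against CVST-2d. Of all genes tested, 12.3% were higher at that p in the first comparison and 19.6% passed in either direction in the second. No share of higher genes is given here for the third, so these counts are not read as a rise. Alas1, the form of the first enzyme used outside the erythroid lineage, averaged 52.4 ± 2.44 CPM in CVST-7d, 51.7 ± 4.65 in CVST-2d and 44.5 ± 4.14 in sham cortex. Fech, whose enzyme inserts iron to form haem, averaged 68.9 ± 1.99 CPM in CVST-7d, 63.4 ± 1.79 in CVST-2d and 61.9 ± 4.20 in sham cortex. Cpox, a mitochondrial enzyme of the same pathway, averaged 42.1 ± 2.76 CPM in CVST-7d, 39.4 ± 1.96 in CVST-2d and 43.8 ± 5.69 in sham cortex. The medians of the list were 0.05 in CVST-2d against sham and 0.04 in CVST-7d against sham on the log2 scale.

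The haem-degrading gene Hmox1 was higher than in sham cortex at both times. Hmox1, the inducible enzyme that breaks down haem, stood at 37.9, 167, 116, 51.0 and 12.8 CPM in CVST-2d replicates 1 to 5, against 4.05, 3.75, 2.65 and 3.66 CPM in sham replicates 1 to 4. It stood at 12.0, 5.70, 62.6, 41.5 and 71.6 CPM in CVST-7d replicates 1 to 5. Every CVST sample of either time thus lay above every sham sample. Of all genes tested, 5.65% had CVST-2d samples that all lay above the sham samples. No such share is given here for CVST-7d. Hmox1 rose in CVST-2d against sham by 4.45 ± 0.85 on the log2 scale (SE; edgeR adjusted p = 0.0154) and in CVST-7d against sham by 3.46 ± 0.82 (edgeR adjusted p = 0.0302). The calls were kept in 6 of 9 and 3 of 9 fits that leave out 1 sample: the first was lost without sham replicate 2, 3 or 4, the second without any sham replicate and without CVST-7d replicate 4 or 5. Its log2 fold change in CVST-7d against CVST-2d was -0.99 ± 0.64 (edgeR adjusted p = 0.398), while that of Hba-a1 was -3.60. The difference between these 2 changes was not tested. The CVST-2d samples with most globin, replicates 2 and 3, also had the most Hmox1, whereas CVST-7d replicate 1, highest in globin among the CVST-7d samples, had the second lowest Hmox1 of that group.

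Of 13 tested clearance genes, 1 rose in CVST-2d against sham, 3 in CVST-7d against sham and 1 in CVST-7d against CVST-2d, and none fell. Of all genes tested, 2.98%, 3.61% and 1.54% were called higher in these comparisons. At an unadjusted edgeR p under 0.05, 4, 4 and 2 of the 13 were higher and none lower. Of all genes tested, 12.3% were higher at that p in the first of these comparisons and 19.6% passed in either direction in the second. No share of higher genes is given here for the third, so its count is not read as a rise. The medians of the list were 0.29, 0.24 and 0.02 in these comparisons on the log2 scale, beside -0.01, -0.01 and 0.01 over all genes tested. Slc40a1, the iron exporter ferroportin, averaged 23.7 ± 8.05 CPM in CVST-7d, 9.62 ± 2.88 in CVST-2d and 11.1 ± 1.33 in sham cortex. It rose in CVST-7d against CVST-2d by 1.30 ± 0.24 on the log2 scale (SE; edgeR adjusted p = 0.0165), a call kept in all 10 fits that leave out 1 sample, and against sham by 1.09 ± 0.26 (edgeR adjusted p = 0.0309), kept in 2 of 9, those without CVST-7d replicate 1 or 2. Ftl1, the ferritin light chain that stores iron, averaged 528 ± 320 CPM in CVST-7d and 189 ± 17.2 in sham cortex, a rise of 1.48 ± 0.38 on the log2 scale (SE; edgeR adjusted p = 0.04), kept in 2 of 9 such fits, again those without CVST-7d replicate 1 or 2. The haemoglobin scavenger receptor gene Cd163 averaged 2.17 ± 0.889 CPM in CVST-7d, 1.85 ± 0.796 in CVST-2d and 1.15 ± 0.292 in sham cortex and was not called.

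Markers of other cells of blood and vessel were read beside the globins, and their part in the globin levels was not tested. Platelet genes summed to 4.56 to 13.8 CPM in CVST-7d, 5.55 to 14.9 CPM in CVST-2d and 2.96 to 5.29 CPM in sham cortex. None of the 6 tested of 12 was called in any comparison. In CVST-2d against sham 2, Itga2b and Pf4, were higher at an unadjusted edgeR p under 0.05, where 12.3% of all genes tested were. DESeq2 called 2 higher there, and it also called more of all genes, as counted in the closing section. In CVST-7d against sham 1, Pf4, was higher at that p, where 19.6% of all genes tested passed in either direction. In CVST-7d against CVST-2d 1, Itga2b, was lower, where 10.6% of all genes tested were. Pf4 summed to 29 counts in sham samples, 253 in CVST-2d and 225 in CVST-7d. It may have passed the filter through the CVST groups, so these counts of genes are no support for a rise. Itga2b, an integrin of platelets and megakaryocytes, averaged 2.47 ± 0.292 CPM in CVST-2d and 1.05 ± 0.535 in sham cortex (log2 fold change 1.23 ± 0.33, SE; edgeR adjusted p = 0.053). Pf4, platelet factor 4, averaged 2.62 ± 2.84 CPM in CVST-2d and 0.402 ± 0.0353 in sham cortex (edgeR adjusted p = 0.162). Gp5, a platelet glycoprotein gene, averaged 0.713 ± 0.233 CPM in CVST-2d and 0.669 ± 0.202 in sham cortex.

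Neutrophil genes summed to 9.37 to 36.7 CPM in CVST-7d, 11.9 to 27.6 CPM in CVST-2d and 5.75 to 8.72 CPM in sham cortex. Much of the sum was Csf3r, the receptor of granulocyte colony-stimulating factor, which microglia also express. Without it, an omission chosen after the values were seen, the sums were 1.90 to 7.91 CPM in CVST-7d, 3.96 to 13.2 CPM in CVST-2d and 1.27 to 4.11 CPM in sham cortex, and both CVST groups overlapped the sham range. Of 14 genes 5 were tested and Elane, an enzyme of neutrophil granules, had no count in any sample. Il1r2, a decoy receptor for interleukin-1, rose in CVST-2d against sham (0.867 ± 0.364 and 0.186 ± 0.127 CPM; log2 fold change 2.13 ± 0.48, SE; edgeR adjusted p = 0.0297). Its call was kept in 1 of the 5 left-out fits in which it passed the filter, that without CVST-2d replicate 1. Csf3r rose in CVST-7d against sham (17.3 ± 9.75 and 4.45 ± 0.551 CPM; log2 fold change 1.96 ± 0.38, SE; edgeR adjusted p = 0.0141). It was kept in 7 of 9 left-out fits and lost without sham replicate 2 or 3. The alarmin genes S100a8 and S100a9, abundant in neutrophils, were named after their values were seen and were not called. S100a8 averaged 0.285 ± 0.242 CPM in CVST-7d, 1.39 ± 0.831 in CVST-2d and 0.264 ± 0.235 in sham cortex. S100a9 averaged 0.151 ± 0.147 CPM in CVST-7d, 1.82 ± 1.37 in CVST-2d and 0.558 ± 0.737 in sham cortex. In CVST-7d against sham their log2 fold changes were 0.13 (edgeR adjusted p = 0.949) for S100a8 and -1.81 (edgeR adjusted p = 0.347) for S100a9. Il1r2, S100a8 and S100a9 summed to 14, 19 and 39 counts in sham samples and to 76, 130 and 170 in CVST-2d. They may have passed the filter through the CVST-2d group. At an unadjusted edgeR p under 0.05, 4 of the 5 tested genes were higher in CVST-2d against sham, where 12.3% of all genes tested were. Il1r2 and S100a8 were among the 4, and 9 genes of the list were not tested. This count therefore cannot be read against that share. In CVST-7d against sham 1 of the 5, Csf3r, was higher, where 19.6% of all genes tested passed in either direction. None was called by edgeR in CVST-7d against CVST-2d, while DESeq2 called 2 lower. At an unadjusted edgeR p under 0.05, 1 was higher and 3 lower, where 10.6% of all genes tested were lower. The 3 were Il1r2, S100a8 and S100a9, so this count cannot be read against that share either.

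Lymphocyte genes summed to 35.1 to 83.2 CPM in CVST-7d, 20.7 to 62.2 CPM in CVST-2d and 19.2 to 61.8 CPM in sham cortex. None of the 5 tested of 16 was called. At an unadjusted edgeR p under 0.05, 1 was higher in each comparison with sham, Cd79b in both. Of all genes tested, 12.3% were higher at that p in CVST-2d, and 19.6% passed in either direction in CVST-7d. Cd79b averaged 0.62 ± 0.37 CPM in CVST-7d, 0.37 ± 0.17 in CVST-2d and 0.14 ± 0.052 in sham cortex. Its edgeR adjusted p in CVST-7d against sham was 0.0507. It summed to 54 counts in CVST-7d, 34 in CVST-2d and 10 in sham samples. It may have passed the filter through the CVST groups. DESeq2 called 1 higher in CVST-7d against sham. Ighm, the heavy chain of IgM, averaged 45.9 ± 16.2 CPM in CVST-7d, 29.4 ± 16.6 in CVST-2d and 23.3 ± 13.7 in sham cortex. Trbc2, a T cell receptor constant gene, averaged 7.99 ± 3.34 CPM in CVST-7d, 8.29 ± 5.04 in CVST-2d and 6.84 ± 6.58 in sham cortex. Cd4 averaged 3.48 ± 5.47 CPM in CVST-7d, 3.62 ± 4.87 in CVST-2d and 6.77 ± 7.17 in sham cortex.

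**Figure D5:**
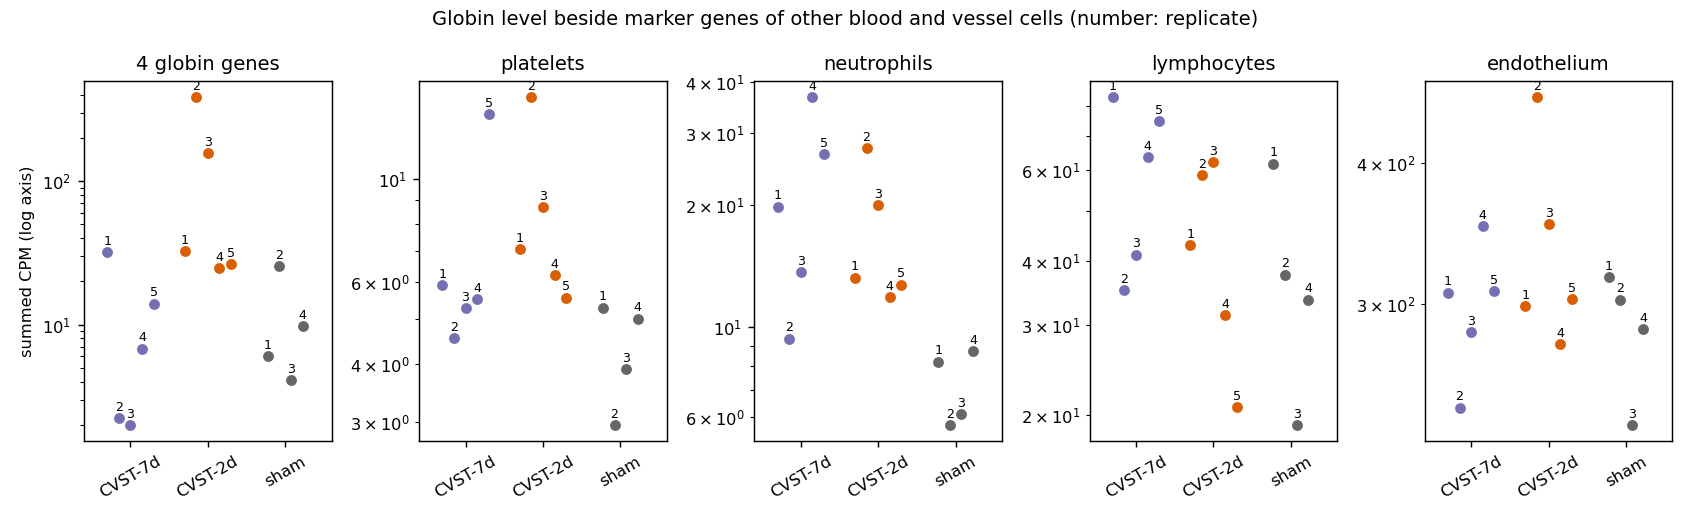
Summed CPM per sample, on log axes, of the 4 globin genes and of marker lists for platelets, neutrophils, lymphocytes and endothelium; points are samples with their replicate number. CVST-2d replicate 2 is the highest CVST-2d sample in 4 of the 5 panels, lymphocytes being the exception, and the highest CVST-7d sample differs between panels.

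The endothelial list summed to 243 to 352 CPM in CVST-7d, 276 to 457 CPM in CVST-2d and 235 to 317 CPM in sham cortex, with CVST-2d replicate 2 the highest of all samples. In CVST-2d against sham 2 of 10 genes rose, where 2.98% of all genes tested did. At an unadjusted edgeR p under 0.05, 3 were higher, where 12.3% of all genes tested were. At that p 1 was lower, Slco1a4, an organic anion transporter of the blood-brain barrier (log2 fold change -0.38). Pecam1, the adhesion molecule CD31, averaged 46.3 ± 16.4 CPM in CVST-2d and 22.9 ± 2.86 in sham cortex (log2 fold change 1.02 ± 0.20, SE; edgeR adjusted p = 0.0179), kept in 6 of 9 left-out fits and lost without sham replicate 2, 3 or 4. Cdh5, the cadherin of endothelial junctions, averaged 27.6 ± 10.3 CPM in CVST-2d and 14.1 ± 1.32 in sham cortex (log2 fold change 0.97 ± 0.23, SE; edgeR adjusted p = 0.0338), kept in 2 of 9, those without CVST-2d replicate 4 or 5. None was called in CVST-7d against sham. There 1 was higher at an unadjusted edgeR p under 0.05, where 19.6% of all genes tested passed in either direction.

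In CVST-7d against CVST-2d, Pecam1 fell by 0.78 ± 0.19 on the log2 scale (SE; edgeR adjusted p = 0.0429), kept in 3 of 10 left-out fits, those without CVST-2d replicate 2, 4 or 5. Slco1a4 rose by 0.63 ± 0.16 (SE; edgeR adjusted p = 0.0488), kept in 1 of 10, that without CVST-2d replicate 5. The medians of the endothelial list were 0.33 in CVST-2d against sham and -0.29 in CVST-7d against CVST-2d on the log2 scale.

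Pecam1 was also the gene outside the 5 whose log2 CPM was most like the mean of the 4 tested globin genes over the 14 samples (Pearson r = 0.90, Spearman rho = 0.84, among 15298 genes with a mean of at least 1 CPM). Timeless, a clock and replication fork gene, followed with r = 0.88, then Mtap, an enzyme of methionine salvage, with 0.88, Ccnd1 (cyclin D1) with 0.87 and Eng, the endothelial co-receptor endoglin, with 0.87. As a description of genes chosen for this likeness, Ccnd1 averaged 43.3 ± 6.52 CPM in CVST-7d, 89.7 ± 30.6 in CVST-2d and 56.1 ± 8.67 in sham cortex. Timeless averaged 4.97 ± 1.07 CPM in CVST-7d, 8.53 ± 1.96 in CVST-2d and 4.55 ± 0.566 in sham cortex. Among deviations from the group means, which take the group differences out, the nearest genes were Serpinb9 (r = 0.86), Kif26a (0.86), H2-Q7 (0.86), Brca1 (0.85) and Mtap (0.85). With 14 samples and this many genes, correlations of this size are given as a description only.

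Neuronal markers were abundant in all groups, but choroid plexus genes were high in some samples, so the tissue was not shown to be cortex alone. Slc17a7 encodes the vesicular glutamate transporter of cortical excitatory neurons. It averaged 1179 ± 240 CPM in CVST-7d, 1330 ± 175 in CVST-2d and 1175 ± 143 in sham cortex. None of 8 neuronal markers was called. At an unadjusted edgeR p under 0.05, 1 was higher in CVST-2d against sham, where 12.3% of all genes tested were. At that p 1 was lower in CVST-7d against CVST-2d, where 10.6% of all genes tested were. Genes of the choroid plexus, a vessel-rich tissue of the brain ventricles, varied widely, from 12.5 to 128 CPM summed in CVST-7d, 8.15 to 507 CPM in CVST-2d and 13.6 to 882 CPM in sham cortex. None of its 7 genes was called. In CVST-7d against sham 3 were lower at an unadjusted edgeR p under 0.05, where 19.6% of all genes tested passed in either direction. Its leading gene Ttr, transthyretin, averaged 26.6 ± 43.7 CPM in CVST-7d, 184 ± 224 in CVST-2d and 273 ± 363 in sham cortex. The part of dissection in the globin levels was not tested. Library totals were 14.7 to 20.8 M counts.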

How the data were processed

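Trizol extraction of total RNA from mouse cortex and NEBNext Ultra libraries are recorded per the labels' protocols. The submitters' processing notes list the tools fastp, HISAT2 and DESeq2 1.16.1, and the build mm39. The sources used here give no counting tool, annotation release or strand setting. The deposited count table holds raw counts per gene for each of 14 samples, and the deposited FPKM values, scaled by the authors to gene length and library size, were used only to compare genes of different length.

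Of 55894 rows, 535 without an Ensembl gene (0.203 to 0.278% of the counts of a library) were left out. All 14 samples were fitted together with edgeR 4.0.16 (glmQLFit and glmQLFTest, TMM, filterByExpr, no covariate), two-sided, with Benjamini-Hochberg adjustment over 16918 genes and a threshold of 0.05. SE is the absolute log2 fold change divided by the root of F. Alas2, below the filter, comes from the fit without it. Single values were also compared by exact permutation of log2 CPM (prior count of 2) over samples. Ratios of Alas2 to globin include 0 and were compared on the linear scale in place of the log2 scale planned. Shares have 95% Clopper-Pearson intervals. Alternatives were DESeq2 1.42.0, its size factors, no filter, the replicate number as a block, limma 3.58.1 voom with quality weights, 2 groups only, the copies summed, a prior count of 0.5, log2(FPKM + 0.1), the ratio of CPM, and each sample left out. On counts simulated for 16918 genes in CVST-2d against sham, the fit called 93% of 100 genes changed 4-fold and 98% of 100 changed 8-fold, and 3.05% of its calls were unchanged genes. The changed genes were drawn at random from all tested genes. These shares therefore do not give the power for the globin genes, which varied widely between samples.

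The samples' labels do not say that each is a separate animal, so p-values measure the spread between these samples. The labels give no batch. No pair of replicates agreed within sampling noise (lowest chi-square per degree of freedom 7.76). The 5 genes and the gene lists were chosen with earlier results of these data known. Named genes are the 5 members, every list gene called (up to 6 per list by p) or otherwise the 3 of highest level, and the 5 most alike by each of the 2 correlations. Cd163, Cd79b, Slc4a1, S100a8, S100a9 and the globins, Gata1, Rhag and Elane at or near 0 were named after their values were seen.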

Additional observations from a re-analysis of the deposited data

Results flagged for a closer look

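The sham group had 2 values set apart from the rest of the group, both in sham replicate 2. Hba-a2 was at 8.59 CPM there, against 1.85 to 2.58 CPM in the other 3 sham samples. Alas2 was at 0.363 CPM there, from 6 counts, against 0 to 0.0538 CPM in the others. In CVST-7d replicate 2 the ratio of summed alpha to summed beta FPKM was 3.57, against 0.795 to 1.54 in the other 4 CVST-7d samples. That sample had 26 alpha and 9 beta counts. In all, 27 sets of 4 or 5 values were screened by Dixon's criterion and 3 stood out. Its nominal rate of about 1 in 20 holds for independent, normally distributed values. These values were skewed and the sets share libraries, so the chance rate here is not known.

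The change in Hba-a1 against sham at 7 days minus that at 2 days was -3.60 on the log2 scale (edgeR adjusted p = 0.048). The sham samples cancel in this difference, so it is the comparison of CVST-7d with CVST-2d already given and no further result. Its call was lost in 9 of 10 fits with 1 sample left out, with adjusted p from 0.0515 to 0.12 in those, and with the replicate block (edgeR adjusted p = 0.166).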

How the results depend on the processing

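The log2 fold changes of the 5 genes in CVST-2d against sham kept their sign in all 33 alternative fits and in all 45 fits with 1 sample left out. More were called under 3 settings. DESeq2 called Hba-a1 (3.59), Hba-a2 (3.36), Hbb-bs (3.49) and Hbb-bt (3.17), the fit with no filter called Hba-a1 (3.60) and Hbb-bt (3.17), and voom with quality weights called Hba-a1 (3.87), Hbb-bs (3.75) and Hbb-bt (3.54). With 1 sample left out the ranges were 2.45 to 4.47 for Hba-a1, 2.24 to 4.12 for Hba-a2, 2.54 to 4.27 for Hbb-bs and 2.15 to 3.86 for Hbb-bt.

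In CVST-7d against CVST-2d the call on Hba-a1 was lost with voom (-4.19), with 2 groups only (-3.59) and with the copies summed (-3.45), and it ranged from -4.30 to -2.44 with 1 sample left out. DESeq2 added Hba-a2 (-3.34), Hbb-bs (-3.48) and Hbb-bt (-3.31), no filter added Hbb-bs (-3.51) and Hbb-bt (-3.31), and voom added Hbb-bt (-3.84). With 1 sample left out Hba-a2 ranged from -4.19 to -2.23, Hbb-bs from -4.45 to -2.54 and Hbb-bt from -3.70 to -2.29. DESeq2 gave Alas2 -2.27 with no adjusted p. With a prior count of 0.5, Alas2 differed by 2.97 in CVST-2d against sham (unadjusted exact permutation p = 0.0397).

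In CVST-7d against sham the signs turned, as values near 0 do. Hba-a1 (-0.33) and Hba-a2 (-1.57) were negative with voom, and Hbb-bs was positive with DESeq2 (0.014), with its size factors (0.0042) and with 2 groups only (0.008). With 1 sample left out the ranges were -0.69 to 0.88 for Hba-a1, -0.80 to 0.76 for Hba-a2, -0.94 to 0.76 for Hbb-bs, -0.52 to 0.55 for Hbb-bt and -0.074 to 2.66 for Alas2. Of the shares and ratios, 4 differences turned sign in fits with 1 sample left out. These were the Hba-a1 share in CVST-7d minus CVST-2d (-7.00 to 7.54 percentage points), the Hbb-bs share in CVST-2d minus sham (-0.740 to 1.84), and the log2 alpha to beta ratio in CVST-7d minus CVST-2d (-0.105 to 0.437) and minus sham (-0.269 to 0.273).

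The counts of genes called moved widely. Higher and lower calls were 1073 and 455 (DESeq2) and 1420 and 1196 (voom) in CVST-2d against sham, beside 505 and 164. In CVST-7d against sham they were 1042 and 344 (DESeq2), with 92 lower (no filter) and 290 lower (voom), beside 611 and 141. In CVST-7d against CVST-2d they were 645 and 635 (DESeq2), 586 and 651 (voom) and 55 and 26 (2 groups only), beside 261 and 212. With 1 sample left out, higher and lower calls ranged from 60 to 1193 and 16 to 774 in CVST-2d against sham, 101 to 892 and 18 to 143 in CVST-7d against sham, and 98 to 604 and 75 to 705 in CVST-7d against CVST-2d. The 12 calls named for genes outside the 5 were kept in 103 of 179 repeats. The cause of these shifts was not tested.

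The replicate numbers did not pair the samples: same-numbered samples had correlations of deviations from -0.438 to 0.280. With the replicate number as a block, Hba-a1 in CVST-7d against CVST-2d was -2.84 (edgeR adjusted p = 0.166), and Hbb-bs (0.44) and Hbb-bt (0.41) were positive in CVST-7d against sham. Under the block 186 genes were called higher in CVST-2d against sham, 55 higher and 26 lower in CVST-7d against sham, and 57 higher and 34 lower in CVST-7d against CVST-2d, and 9 of the 12 named calls were lost. Alas2 and the globins in CVST-7d and sham samples rest on few counts, which limits their precision.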
